A study of Mus musculus with 4 samples.

Results

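The comparison described here set differentiating C2C12 cells that had received S2101, which the labels name as an LSD1 inhibitor, against cells that had received vehicle. Of the 4 arrays of the series, 3 were used: 1 array from S2101-treated cells and 2 arrays from vehicle-treated cells, called control 1 and control 2. The array from cells given tranylcypromine was not used. All cells were grown in DMEM with 25 mM glucose and 10% fetal bovine serum and were induced to differentiate in the same medium with 2% horse serum instead. RNA was collected after 48 h. No source used here gives the dose of S2101 or names the vehicle, and none says that the 2 control arrays came from separate cultures. The p-values below therefore measure a spread between samples that may be technical, and that spread came from the control pair alone.

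C2C12 is a mouse myoblast line from adult skeletal muscle. When serum is lowered, its cells leave the cell cycle, switch on myogenin and the genes of the contractile apparatus, and fuse into myotubes. LSD1, encoded by Kdm1a, is a flavin-dependent amine oxidase that removes methyl groups from lysines of histone tails, mostly within complexes built around the CoREST proteins. The series compared vehicle with LSD1 inhibitors during this differentiation.

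Each probe set has a signal on a linear scale, with every array scaled to the same trimmed mean. Signals were compared between arrays for the same gene, not between genes. Sums over marker genes were compared between arrays too, and the brightest genes weigh most in them. Of 18194 genes with a probe set of their own, the 9097 with a mean signal of at least 180.7 were tested. Differences are S2101 minus the mean of the controls on the scale log2(signal + 50), so that 1 stands for a 2-fold change, and they understate the change of dim genes. A gene is said to have risen or fallen where limma's moderated test gave a Benjamini-Hochberg adjusted p under 0.05, and ± gives the standard error. The correlation of log2(signal + 50) over all probe sets other than array controls was 0.989 between the controls and 0.987 and 0.988 between S2101 and each control. The Gapdh 3'/5' signal ratio, a sign of RNA integrity, lay between 0.743 and 0.782 on the 3 arrays. Arrays measure RNA from whole cultures, so fewer cells of a type and less RNA per cell cannot be told apart.

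With S2101, 616 of 9097 genes passed the test (6.77%). Of these, 297 rose (3.26% of genes tested) and 319 fell (3.51%). The differences between S2101 and control had an SD of 0.26 over genes, against 0.17 for the difference between the controls. The former are differences from a mean of 2 arrays and the latter between single arrays, so these spreads are not like for like. The central 90% of genes lay between -0.37 and 0.40 for S2101 and between -0.27 and 0.28 for the control pair. A description that leans on no variance estimate is the count of genes whose S2101 value lay at least 2-fold beyond both controls. There were 18 such genes on the high side (0.198%) and 23 on the low side (0.253%), while the controls themselves differed by 2-fold or more in 3 genes. The limit for the controls is the looser one. By that measure S2101 differed from the control mean by at least 2-fold in 53 genes. The count past the test depended on the settings. It was 21 genes when dim genes were kept in the fit, which also raised the number tested to 18194. With the variance not allowed to vary with signal it was 110. On simulated data the fit made more false calls than an adjusted p under 0.05 stands for, so the adjusted p-values here may be too small. The signal limit includes the S2101 array. It let in 24 genes whose controls both lay under it, of which 10 rose and 0 fell, and it kept out 23 whose controls both lay at or above it.

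**Figure D1:**
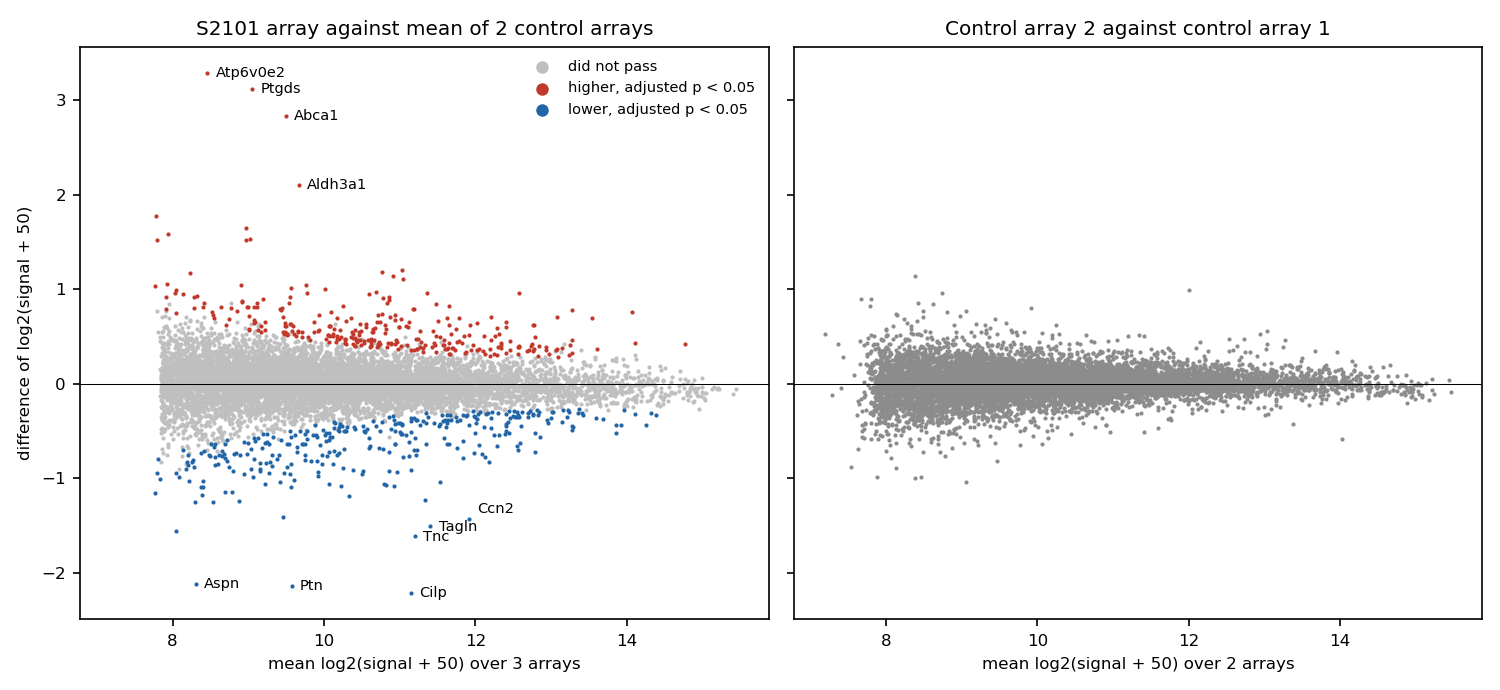
Difference between S2101 and the mean of the controls, on the scale log2(signal + 50), against mean level for the 9097 genes tested, beside the same plot of the difference between the controls. Coloured points in the S2101 panel are the 616 genes past the limma test, and the spread in that panel (SD 0.26) is wider than between the controls (SD 0.17).

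The genes that rose most included Atp6v0e2, which encodes a subunit of the proton-pumping V-ATPase, Ptgds, the lipocalin-type prostaglandin D synthase, and Abca1, the transporter that moves cholesterol out of cells. Atp6v0e2 had signals of 92.5 and 140.1 in the controls and 1554 with S2101. The difference was 3.29 ± 0.20 (limma adjusted p = 3.07e-05). Its S2101 value was far above both controls. Both controls were under the signal limit, so the gene reached the test through the S2101 value itself, though it also passed with no limit. Ptgds read 239.7 and 181 in the controls and 2196 with S2101, a difference of 3.12 ± 0.17 (limma adjusted p = 1.12e-05). Abca1 read 348 and 303 in the controls against 2623, a difference of 2.83 ± 0.13 (limma adjusted p = 9.46e-06). Aldh3a1, an aldehyde dehydrogenase that detoxifies lipid-derived aldehydes, followed with signals of 443 and 461 against 2102 (2.10 ± 0.12). For each of these genes the gap to the controls was many times the gap between them. The genes were picked by a test that uses the gap between the controls, so this is no separate support.

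A further 11 genes made up the 15 with the largest rises that lay at least 0.5 beyond both controls. Xdh, the xanthine oxidoreductase of purine breakdown, was dim in the controls at 72.5 and 126 and read 451 with S2101 (1.77 ± 0.25). Chchd10, a small mitochondrial protein, went from 301 and 285 to 1025 (1.65 ± 0.14). Slc2a6, a hexose transporter of the facilitative glucose transporter family, went from 328 and 303 to 1007 (1.53 ± 0.14). Tm7sf2, a sterol reductase of cholesterol synthesis, went from 302 and 302 to 959 (1.52 ± 0.14). The synaptic vesicle gene Syngr1 read 123 and 117 in the controls and 459.99 with S2101 (1.58 ± 0.19), although its other bright probe set differed by only 0.26. Fam107a had signals of 112 and 99.2 against 397 (1.52 ± 0.20). Xdh, Syngr1 and Fam107a lay under the signal limit in both controls and were tested only through their S2101 value. None of the 3 was called with no limit (limma adjusted p = 0.156, 0.111 and 0.133). Igfbp4, which binds insulin-like growth factors outside the cell, rose from 1519.7 and 1539 to 3576 (1.20 ± 0.09), and its 4 other bright probe sets gave differences between 0.76 and 2.10. The other genes of this set were Gsta4, a glutathione transferase (1.18 ± 0.10), Abcg1, a second sterol transporter (1.17 ± 0.19), Mylip, a ubiquitin ligase for the LDL receptor (1.14 ± 0.09), and Srebf1, a transcription factor for lipid synthesis genes (1.11 ± 0.10). Adjusted p over these 11 genes lay between 8.90e-05 and 0.00604 in limma.

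The genes that fell most were led by secreted proteins. Cilp, a matrix protein of cartilage and stroma, had signals of 3772 and 3704 in the controls and 766 with S2101, a difference of -2.22 ± 0.08 and the smallest adjusted p of any gene tested (limma, 2.60e-06). Ptn, the heparin-binding growth factor pleiotrophin, read 1116 and 1293 against 233 (-2.14 ± 0.13). Aspn, the small leucine-rich proteoglycan asporin, read 428 and 512 against 69.1 (-2.12 ± 0.19). Tnc, the matrix glycoprotein tenascin C, read 3373 and 3379.8 against 1067 (-1.62 ± 0.08). In all 4 the gap between the controls was small beside the gap to S2101, which lay below both. Being picked required a value beyond both controls, so this too is no separate support.

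The rest of the 15 largest falls held matrix, cytoskeletal and proliferation genes. Tagln, the actin-binding protein transgelin, read 3812 and 3766 against 1297 (-1.51 ± 0.08), and Ccn2, connective tissue growth factor, read 5254 and 5410.1 against 1938 (-1.44 ± 0.08). Igf1, the growth factor that acts on muscle through the type 1 receptor, read 1631 and 1659 against 691 (-1.19 ± 0.10), and its 3 other bright probe sets gave -1.27, -1.34 and -0.99. G0s2, an inhibitor of the triglyceride lipase ATGL, read 3524 and 3232 against 1404 (-1.24 ± 0.09). Prelp, another leucine-rich proteoglycan, read 882 and 965 against 317 (-1.41 ± 0.13). Genes of DNA repair and mitosis completed the set: Rad51ap1 (-1.56 ± 0.19), the kinetochore subunit Spc24 (-1.25 ± 0.17), the spindle protein Tacc3 (-1.25 ± 0.18), the S-phase cyclin Ccne2 (-1.24 ± 0.15), the cohesin protector Sgo1 (-1.18 ± 0.17) and Lrr1 (-1.16 ± 0.22). Limma's adjusted p over the 15 genes reached at most 0.0138.

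**Figure D2:**
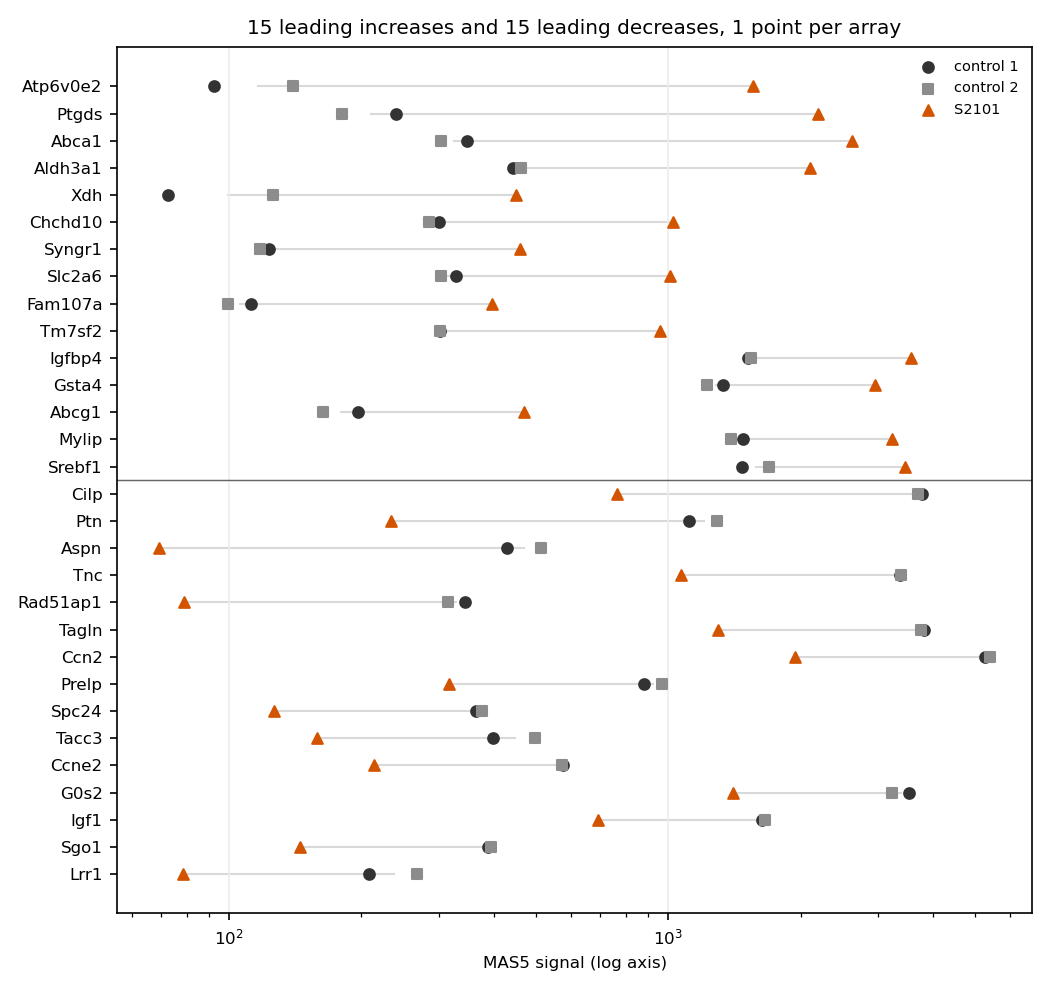
Signal of the 15 genes with the largest rise and the 15 with the largest fall on the 2 control arrays and the S2101 array, on a log axis, with a grey line from the control mean to S2101. The genes were chosen to lie at least 0.5 beyond both controls, so both control points must lie on the same side of the S2101 point. Examples are Atp6v0e2 (92.5 and 140.1 against 1554) and Cilp (3772 and 3704 against 766).

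Of these 30 genes, 16 lost their call when dim genes were kept in the fit (limma adjusted p between 0.0520 and 0.224), and Lrr1 lost its call with no intensity trend (0.0505). In contrast, 21 genes, 9 higher and 12 lower, passed in each of 8 settings, which leave out the stricter signal limit and the limit set on the controls alone. Besides 7 leaders on each side, the rising set held Inhbb, the activin subunit beta B, at 4729.6 and 4953 against 9448 (0.96 ± 0.07, limma adjusted p = 1.51e-04). Kbtbd11 read 1292 and 1256 against 2539 (0.97). The falling set added Cdc20 and Top2a, described with the cell cycle below, the spindle checkpoint gene Mad2l1 (1504 and 1474 against 678, -1.08), the LIM domain protein Csrp2 (3592 and 3819 against 1778, -1.04) and the PCNA-binding factor Pclaf (2276 and 2231 against 1160.1, -0.93). Inhbb, Kbtbd11, Mad2l1, Csrp2 and Pclaf were picked out after their values were seen.

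**Figure D3:**
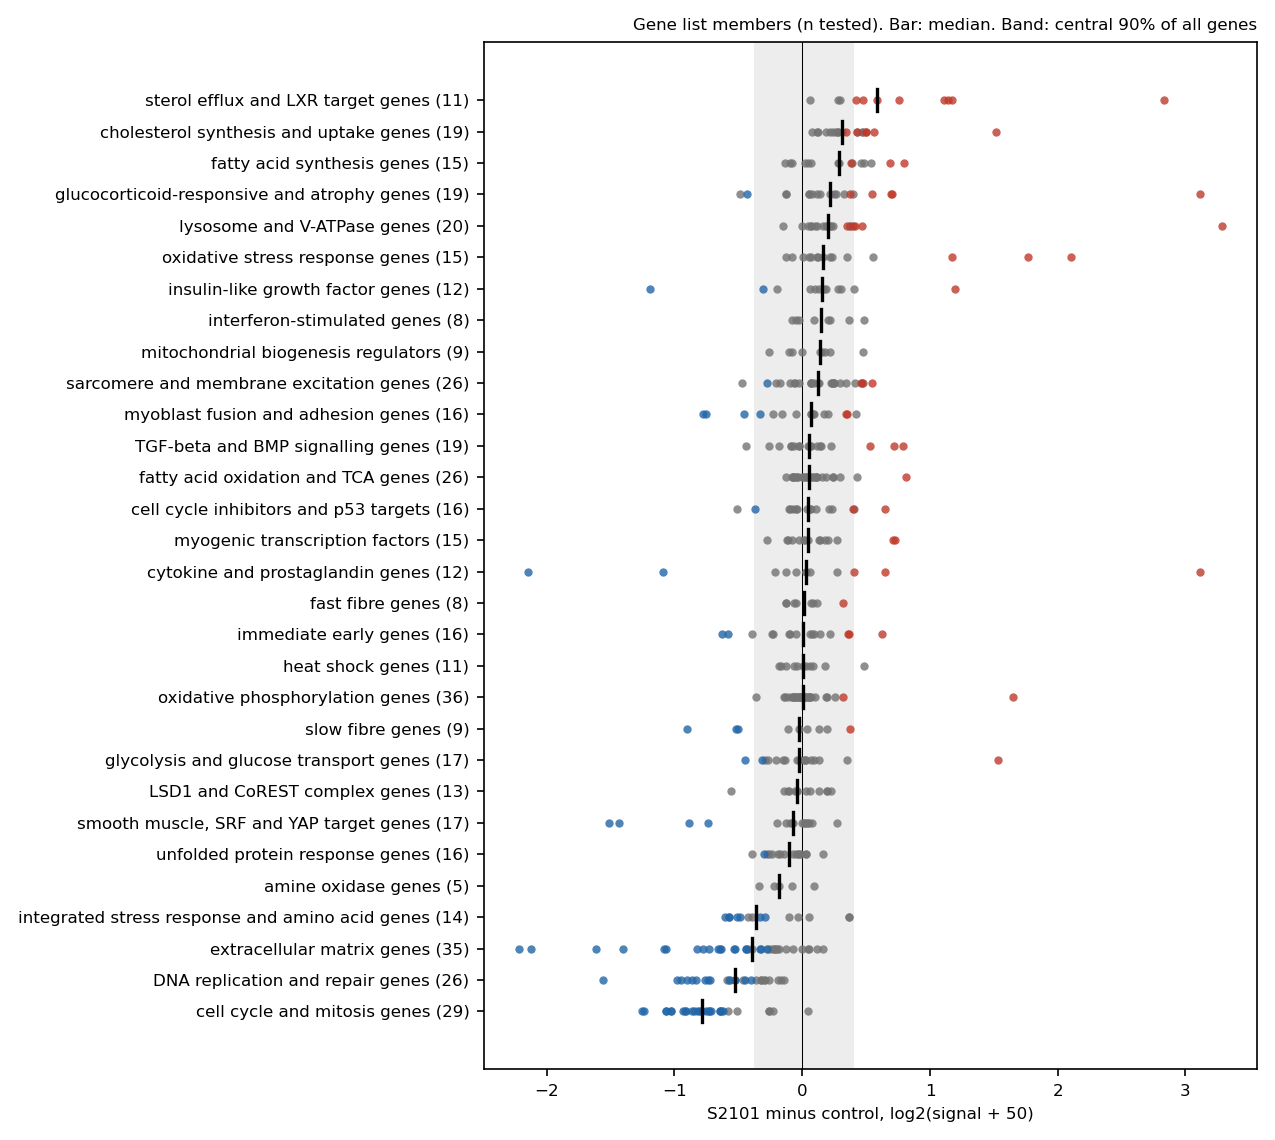
Difference between S2101 and control for each tested member of the gene lists, on the scale log2(signal + 50), with the list's median as a bar, members past the limma test in red (higher) or blue (lower) and a band for the central 90% of all genes tested. Medians run from -0.78 for cell cycle and mitosis genes to 0.58 for sterol efflux and LXR target genes, against 0.01 over all genes tested.

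Sterol handling was the group that rose most. LXRs are nuclear receptors that bind oxidised sterols and switch on genes for cholesterol efflux and lipid synthesis. Of 11 tested genes of sterol efflux and other LXR targets, 8 rose and none fell, beside 3.26% of all genes tested that rose. The list's median difference was 0.58, and all 11 members lay above both controls, beside 39.1% of all genes tested. The 4 largest were Abca1, Abcg1, Mylip and Srebf1, given above. Scd1, the stearoyl-CoA desaturase that makes monounsaturated fatty acids, had signals of 14786 and 14020.0 in the controls and 24328 with S2101 (0.75 ± 0.07, limma adjusted p = 4.10e-04). Its relative Scd2 read 24670.2 and 26013 against 33854 (0.42 ± 0.07). Lpcat3, which remodels phospholipids, read 1312 and 1442 against 2086 (0.58 ± 0.10), and the phospholipid transfer protein gene Pltp read 2109.8 and 2116 against 2954 (0.47 ± 0.08). The 3 members that did not pass were Npc1 (0.29), Lpl (0.28) and Npc2 (0.06). Of the dim members, Apoe read 97.3 and 13.9 in the controls and 236 with S2101, and Nr1h3, which encodes LXR alpha, read 123 and 109.5 against 62.4. Of the 8 calls, 4 were kept without the intensity trend and 2 with dim genes in the fit.

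The promoters of Abca1 and Srebf1, both among the leading rises, are shown with those of the other genes that hold the same long element. RefSeq promoter windows (build GRCm38.p6) were searched over the 250 bases before each gene's start, on both strands, for the element GGTTACNNNCGGTCA. These letters are those that the Abca1 and Srebf1 promoters share at their known LXR elements, with 3 free bases in the middle. The fixed stretches on either side were not set to the limits of the half-sites. The letters were chosen after the calls were known. Its presence in those 2 genes is therefore no finding. Of 32851 promoters, 4 held it (0.0122%), and all 4 belonged to genes tested here (0.0538% of the 7438 tested genes with an entry): Abca1, Srebf1, Fasn and Prrg4. Each window below runs 5′ to 3′ on the gene's own strand, which is the minus strand for all 4, and capitals mark the element, read on its reverse complement.
Abca1, chr4:53159918-53159992: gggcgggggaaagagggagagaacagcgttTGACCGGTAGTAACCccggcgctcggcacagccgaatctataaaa
Srebf1, chr11:60210609-60210683: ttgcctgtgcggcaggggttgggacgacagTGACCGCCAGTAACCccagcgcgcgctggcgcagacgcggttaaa
Fasn, chr11:120824728-120824797: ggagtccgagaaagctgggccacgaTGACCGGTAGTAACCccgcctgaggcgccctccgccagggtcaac
Prrg4, chr2:104849873-104849947: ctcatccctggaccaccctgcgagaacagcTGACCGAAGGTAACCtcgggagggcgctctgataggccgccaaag
The element began 67 bases before the gene start in Abca1, 182 in Srebf1, 225 in Fasn and 67 in Prrg4. Abca1 and Srebf1 were chosen for having risen and tell nothing further. Of the other two, Fasn rose, as given below. Prrg4, a membrane protein with a vitamin K-dependent domain, had signals of 539.7 and 420 in the controls and 624 with S2101, and its difference of 0.36 ± 0.16 did not pass (limma adjusted p = 0.256). Of the 8 sterol efflux genes that rose, 5 had an entry and 2 held the element. A match is a description of letters, not evidence of binding.

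Cholesterol synthesis and uptake genes are driven by the SREBP transcription factors when sterols in the endoplasmic reticulum are low. Of 19 tested members, 6 rose and none fell, beside 3.26% of all genes tested that rose. All 19 had values above both controls, beside 39.1% of all genes tested. The median difference was 0.31. Tm7sf2, given above, rose most. Insig1, which holds SREBPs in the endoplasmic reticulum, read 2354 and 2417 in the controls and 3542 with S2101 (0.56 ± 0.08). Msmo1, a sterol methyl oxidase, read 3614 and 4216 against 5553 (0.50 ± 0.10). Fdft1, the squalene synthase, read 6218 and 6277 against 8832 (0.50 ± 0.07). The remaining calls were Nsdhl (0.43 ± 0.08) and the farnesyl diphosphate synthase Fdps (0.34 ± 0.07). Pmvk, a kinase of the mevalonate pathway, had a larger difference than those but did not pass (0.47 ± 0.13, limma adjusted p = 0.0709). Pmvk did pass with probe sets averaged. Only Tm7sf2 kept its call without the intensity trend, and no member did with dim genes in the fit. The sterol regulatory core TCACNCCAC was in 0 of the 4 called members with a promoter entry and in 1.17% of tested genes.

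Fatty acid synthesis genes overlap with these programmes. Of 15 tested members 3 rose and none fell, beside 3.26% of all genes tested that rose. The median was 0.29. Fasn, the fatty acid synthase itself, had signals of 1897 and 1859 in the controls and 3293 with S2101 (0.79 ± 0.08, limma adjusted p = 7.27e-04). The desaturases Fads2 (1029.7 and 1113 against 1757, 0.69 ± 0.10) and Fads1 (1667 and 1578 against 2130.0, 0.38 ± 0.09) also rose. Lpin1, a phosphatidate phosphatase (0.54 ± 0.18), the acetyl-CoA synthetase Acss2 (0.49 ± 0.17) and the acetyl-CoA carboxylase Acaca (0.46 ± 0.16) lay above both controls and did not pass, with limma adjusted p between 0.114 and 0.134. Acaca did pass with probe sets averaged. Fasn was the only member called without the intensity trend, and it lost its call with dim genes in the fit (0.0530).

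**Figure D4:**
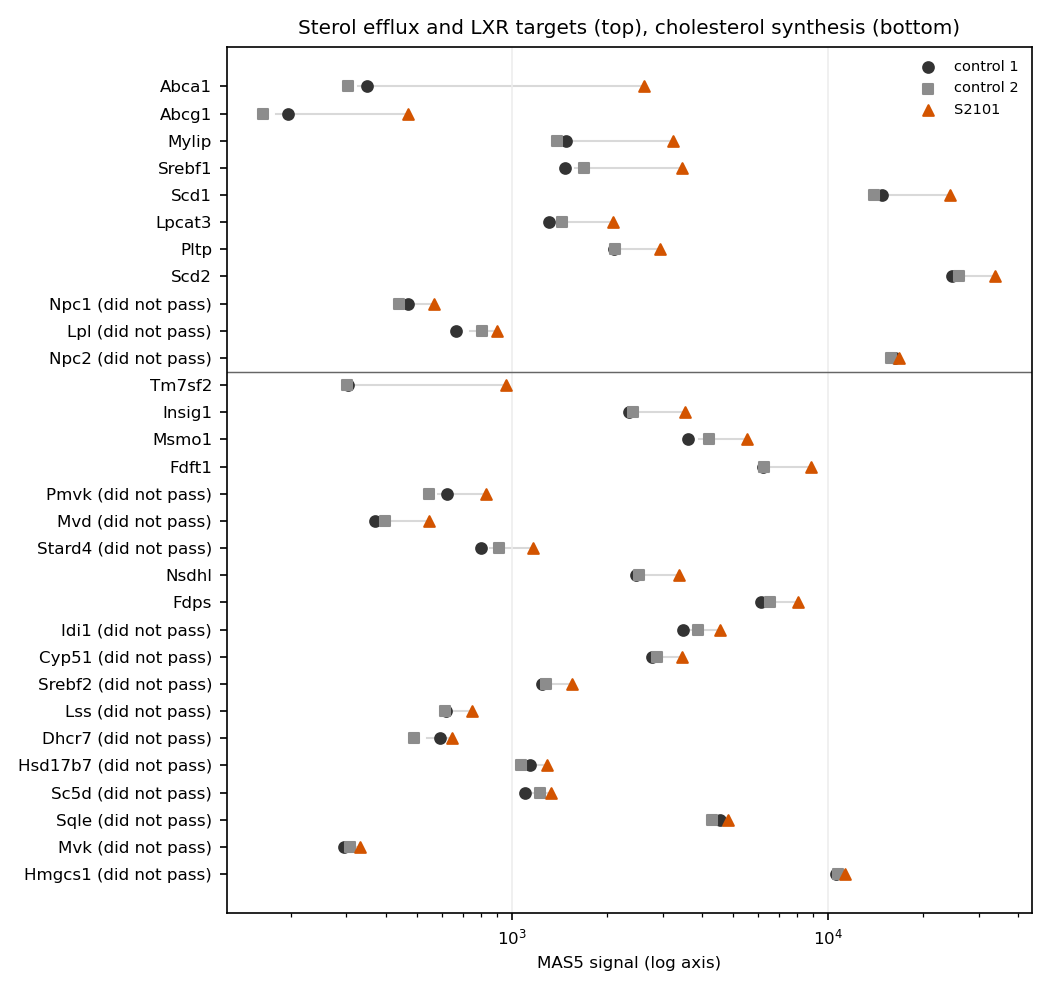
Signal on the 2 control arrays and the S2101 array, on a log axis, for the 11 tested genes of sterol efflux and LXR targets (top) and the 19 of cholesterol synthesis and uptake (bottom), with a grey line from the control mean to S2101 and genes that missed the limma threshold marked as such. In all rows the S2101 point lies to the right of both controls, with the widest gap for Abca1 (348 and 303 against 2623).

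Genes of cell division fell together. These genes are expressed from S phase to mitosis and are normally shut down as myoblasts leave the cell cycle. Of 29 tested cell cycle and mitosis genes, 22 fell and none rose, beside 3.51% of all genes tested that fell. The median difference was -0.78, and 28 of the 29 were below the control mean. Top2a, the topoisomerase that untangles DNA before mitosis, had signals of 2262 and 2269 in the controls and 1053 with S2101 (-1.07 ± 0.09, limma adjusted p = 2.31e-04). The survivin gene Birc5 read 1335 and 1308 against 605 (-1.07 ± 0.11), and the checkpoint kinase Ttk read 365 and 295 against 136 (-1.03 ± 0.19). Cdk1, the kinase that starts mitosis, read 2311 and 2547 against 1247 (-0.93 ± 0.09). Mki67, the proliferation antigen Ki-67, read 1628 and 1575 against 824 (-0.92 ± 0.10). Cdc20, an activator of the anaphase-promoting complex, read 2751 and 2755 against 1443 (-0.91 ± 0.08). The S2101 signal of each was below both controls, as it was for every gene past the test that fell. Of the 22 calls, 10 were kept without the intensity trend and 2 with dim genes in the fit.

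Replication genes shared this direction. Of 26 tested genes of DNA replication and repair, 14 fell and none rose, beside 3.51% of all genes tested that fell. All 26 lay below both controls, beside 37.2% of all genes tested. The median was -0.53. The replicative helicase subunits Mcm5 (1137 and 1189 against 566, -0.98 ± 0.11) and Mcm3 (804 and 866 against 409, -0.95 ± 0.13) fell, as did Gins1 of the same helicase (288 and 324 against 140.5, -0.90 ± 0.18). Brca1, of homologous recombination, read 311 and 310.2 against 149 (-0.86 ± 0.18). The smallest fall among the calls was that of the sliding clamp Pcna, at 10082 and 9679.9 against 7457 (-0.40 ± 0.07, limma adjusted p = 0.00962). Without the intensity trend 6 of the 14 calls were kept, and none was with dim genes in the fit.

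Promoters of mitotic genes carry a CHR element (TTTGAA) and CCAAT boxes, which recruit the DREAM and MuvB complexes and NF-Y. Of the 22 mitosis genes that fell, 16 had a promoter entry, and 7 of these held TTTGAA on either strand within 250 bases: Ccnb2, Cdc20, Cdk1, Kif11, Mki67, Top2a and Ube2c. The same letters were in 12.4% of tested genes. CCAAT was in 15 of the 16, beside 40.5% of tested genes. Of the 12 falling replication genes with an entry, 1 held TTTGAA (Fen1), 8 held CCAAT and 5 held an E2F site, spelled TTTGGCG or TTTCCCG or else TTTCGCG, which was in 9.9% of tested genes. The E2F letters were in 2 of the 16 mitosis genes. The 150 bases before the gene start are given for Cdc20, Cdk1 and Top2a, 3 of the falling genes in which both motifs stood together. They run 5′ to 3′ on the gene's strand (minus for all 3), and capitals mark TTTGAA and CCAAT or their reverse complements.
Cdc20, chr4:118437344-118437493: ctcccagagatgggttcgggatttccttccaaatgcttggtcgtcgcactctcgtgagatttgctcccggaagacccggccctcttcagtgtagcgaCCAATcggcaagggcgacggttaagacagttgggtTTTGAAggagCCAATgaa
Cdk1, chr10:69352913-69353062: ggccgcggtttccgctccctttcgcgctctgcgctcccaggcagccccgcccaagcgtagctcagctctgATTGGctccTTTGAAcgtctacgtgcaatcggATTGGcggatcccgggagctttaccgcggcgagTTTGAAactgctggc
Top2a, chr11:99024190-99024339: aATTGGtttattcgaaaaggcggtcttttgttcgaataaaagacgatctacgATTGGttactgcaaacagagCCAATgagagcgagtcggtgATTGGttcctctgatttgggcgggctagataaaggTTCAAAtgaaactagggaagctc
The nearest TTTGAA or its complement began 18 bases before the gene start in Cdc20, 15 in Cdk1 and 23 in Top2a.

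Genes that brake the cell cycle gave calls in both directions. Among 16 tested cell cycle inhibitors and p53 targets, 2 rose and 1 fell, beside 6.77% of all genes tested that passed. The median was 0.05. Trp53inp1, a p53-induced nuclear protein, rose from 1764 and 1999 to 2976 (0.65 ± 0.10), and the growth arrest gene Gadd45a rose from 6138 and 6154 to 8129 (0.40 ± 0.07). Gadd45g fell from 2559.6 and 2447 to 1928 (-0.37 ± 0.09), a call that quantile normalization ended (limma adjusted p = 0.0625). None of the 3 calls was kept without the intensity trend or with dim genes in the fit. The genes of the cyclin-dependent kinase inhibitors Cdkn1a (0.07), Cdkn1b (0.11) and Cdkn2c (-0.10) did not pass. The retinoblastoma relatives Rbl1 (-0.51 ± 0.14), a growth-phase protein, and Rbl2 (0.41 ± 0.11), a quiescence protein, differed in opposite directions. Neither passed in this fit (limma adjusted p = 0.0696 and 0.0578). Rbl1 passed with the arrays centred on the median, and Rbl2 with the stricter signal limit and with probe sets averaged.

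Extracellular matrix genes formed the other large falling group. Of 35 tested members 19 fell and none rose, beside 3.51% of all genes tested that fell. The median was -0.39. Cilp, Aspn, Tnc and Prelp, given above, were the largest. Col1a1, a chain of type I collagen, had signals of 2624 and 2287 in the controls and 1132 with S2101 (-1.08 ± 0.10, limma adjusted p = 4.10e-04). Among the other 14 calls were Postn, the periostin gene (2099 and 2367 against 1040.0, -1.06 ± 0.10), Col8a1 (-0.82 ± 0.08), all 3 type VI collagen chains on the list (Col6a1, -0.64; Col6a2, -0.66; Col6a3, -0.77) and the small proteoglycan Ogn (20262 and 22903 against 15889, -0.44 ± 0.08). Without the intensity trend 7 of the 19 calls were kept, and 2 with dim genes in the fit. Fibroblast markers were checked beside this group. Of the 5 tested, Lum, Dcn and Col3a1 are also on the matrix list, so most of this check is not separate from it. Pdgfrb fell (8904 and 8819 against 6857, -0.37 ± 0.07) and 4 did not pass, while 3 of the 5 passed with probe sets averaged. The summed signal of the 7 markers with a probe set was 57864 and 57930 in the controls against 50974 with S2101. That sum leans on its brightest members, Col3a1 (33191 and 33332 against 30465) and Dcn (14781 and 14754 against 12805). Neither passed in this fit. Pdgfra lay above both controls (351 and 341 against 417) and did not pass. The part of the fibroblast markers in the matrix result was not tested.

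Targets of SRF and YAP in smooth muscle and stressed fibroblasts fell in part. Of 17 tested members 4 fell and none rose, beside 3.51% of all genes tested that fell. The median of -0.08 was near that of all genes. Besides Tagln and Ccn2, these were Actg2, smooth muscle gamma-actin (1480.1 and 1403 against 756, -0.89 ± 0.10), and the matricellular gene Ccn1 (4576 and 4900.1 against 2826, -0.73 ± 0.08), for which another bright probe set gave 0.07. Acta2, smooth muscle alpha-actin, differed by -0.19 and did not pass (limma adjusted p = 0.145). Without the intensity trend 3 of the 4 calls were kept, and 2 with dim genes in the fit.

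Beside 3.26% of all genes tested, 3 of 19 TGF-beta and BMP signalling genes rose and none fell, with a median of 0.06. They were the BMP antagonist Grem1 (2048 and 1764 against 3322, 0.79 ± 0.10), Ltbp2, a latent TGF-beta binding protein relative (1395 and 1360.3 against 2305, 0.72 ± 0.09), and the type I receptor Tgfbr1 (1484 and 1571 against 2233, 0.53 ± 0.09). All 3 lost their call without the intensity trend (limma adjusted p between 0.0523 and 0.0914) and with dim genes in the fit (between 0.0597 and 0.120). Of 12 tested genes of the insulin-like growth factor system, Igfbp4 rose and Igf1 and Igfbp2 fell, beside 6.77% of all genes tested that passed. Igfbp2 read 11716 and 11449.6 against 9340.4 (-0.31 ± 0.07), a call lost with quantile normalization (limma adjusted p = 0.0526), without the trend (0.213) and with dim genes in the fit (0.217).

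**Figure D5:**
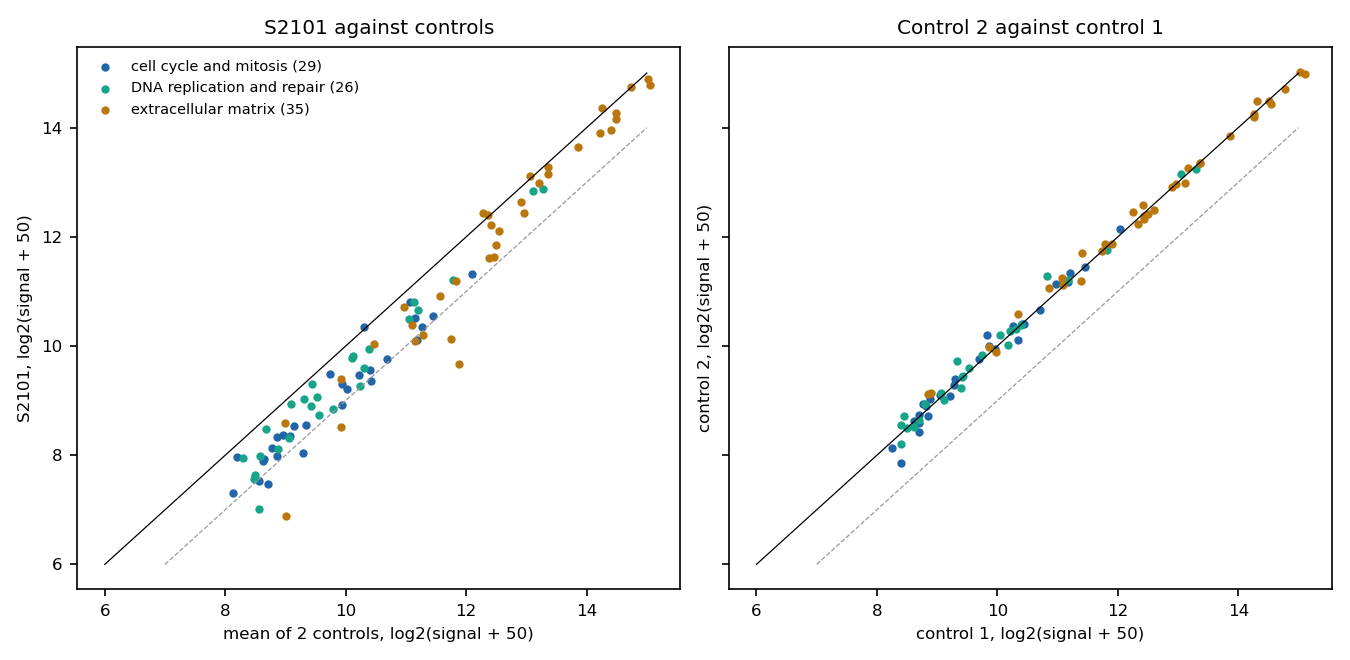
Level with S2101 against the mean of the controls (left) and control 2 against control 1 (right), both as log2(signal + 50), for each tested gene of the cell cycle and mitosis (29), DNA replication and repair (26) and extracellular matrix (35) lists. The solid line marks equal levels and the dashed line a 2-fold lower level on the vertical axis. With S2101 most points lie under the solid line, the farthest being the matrix genes Cilp (-2.22) and Aspn (-2.12), while the controls lie along it.

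Of the 10 markers of a myotube, 9 were bright enough to be tested. Myh8 was under the signal limit (134 and 142 in the controls against 103). None of the 9 passed in this fit, beside 6.77% of all genes tested, while 1 did with probe sets averaged. Myogenin (Myog) read 12999 and 12821 in the controls and 11963 with S2101, a difference of -0.11 ± 0.07 with a 95% interval of -0.26 to 0.04. The embryonic myosin Myh3 read 15273 and 15923 against 13548 (-0.20 ± 0.07, limma adjusted p = 0.131, and 0.0416 with probe sets averaged). Muscle creatine kinase (Ckm) read 1599 and 1773 against 1773 (0.07 ± 0.10). The summed signal of the 10 myotube markers was 143911 and 138930.0 in the controls and 139693 with S2101, between the controls.

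Of 15 tested myogenic transcription factors 2 rose and none fell, beside 3.26% of all genes tested that rose. The median was 0.05. Id2, a helix-loop-helix protein that holds back bHLH factors, read 1498 and 1735 in the controls and 2701 with S2101 (0.73 ± 0.10, limma adjusted p = 0.00342). Eya1, a transcriptional cofactor with phosphatase activity, read 510.0 and 591 against 929 (0.71 ± 0.14). Both lost their call without the intensity trend (limma adjusted p = 0.0787 for each) and with dim genes in the fit (0.121 and 0.169). Mef2c (-0.28 ± 0.12), Id3 (0.27 ± 0.15) and Myf5 (0.20 ± 0.08) did not pass. Mef2d differed by 0.18 in its brightest probe set and by -0.88 in another bright one, so its direction is uncertain.

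Calls among contractile genes went both ways, to be read beside 3.26% of all genes tested that rose and 3.51% that fell. Of 26 tested sarcomere and excitation genes 3 rose, all of the membrane system: the calcium release channel Ryr1 (754 and 625 against 1028, 0.55 ± 0.14), the calcium channel subunit Cacng1 (2025 and 2157 against 2908, 0.47 ± 0.09) and the acetylcholine receptor subunit Chrnb1 (2675 and 2734 against 3729, 0.46 ± 0.08). Cardiac actin (Actc1) fell from 16838 and 17039.5 to 13948 (-0.28 ± 0.07). None of these 4 calls was kept without the intensity trend or with dim genes in the fit, and Ryr1 also lost its call with quantile normalization (limma adjusted p = 0.0914). Of 8 tested fast fibre genes 1 rose, Actn3 (7115 and 7678 against 9219, 0.32 ± 0.08), a call lost in the same 2 settings. Of 9 tested slow fibre genes 3 fell and 1 rose. The slow myosin Myh7 read 561 and 628 against 295 (-0.90 ± 0.15), and the stretch-responsive genes Ankrd2 (-0.52 ± 0.11) and Csrp3 (-0.50 ± 0.11) fell too. The calcium pump Atp2a2 rose from 8106 and 7686 to 10217 (0.37 ± 0.07). Of these slow fibre calls, that of Myh7 alone was kept without the trend, and none with dim genes in the fit.

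Fusion and adhesion genes moved both ways, with 2 of 16 higher and 4 lower, beside 3.26% and 3.51% of all genes tested. The median was 0.07. The muscle caveolin Cav3 fell from 405 and 403 to 215 (-0.78 ± 0.16), the metalloprotease Adam12 from 756 and 659 to 398 (-0.76 ± 0.14), and the integrin-binding chaperone Itgb1bp2 from 1356 and 1365 to 976 (-0.46 ± 0.10). Itgb1, the integrin beta 1 subunit, fell by 0.33 in its brightest probe set, but another bright one gave 0.05. The cell surface receptor Cdon (5223 and 5021 against 6543, 0.35 ± 0.07) and M-cadherin, Cdh15 (5962 and 6087 against 7641, 0.34 ± 0.07), rose. Of the 6 calls, 1 was kept without the intensity trend and none with dim genes in the fit.

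Energy metabolism lists gave few calls, to be read beside the 3.26% of all genes tested that rose and the 3.51% that fell. Of 26 tested genes of fatty acid oxidation and the TCA cycle, 1 rose: Pdk4, the kinase that inhibits pyruvate dehydrogenase (345 and 407 against 697, 0.81 ± 0.15). Of 36 tested oxidative phosphorylation genes 2 rose, Chchd10 and the ATP synthase subunit Atp5o (9214 and 9022 against 11404, 0.32 ± 0.07), and the median was 0.00. None of 9 regulators of mitochondrial biogenesis passed, and the largest difference was that of Ppargc1b (664 and 509.7 against 831, 0.48 ± 0.16, limma adjusted p = 0.118). With probe sets averaged Ppargc1b did pass, as did Fabp3, Acadl and Acadm of fatty acid oxidation, all higher with S2101. Of 17 glycolysis and glucose transport genes, Slc2a6 rose while Slc2a1, the basal glucose transporter (3217 and 3215 against 2347, -0.45 ± 0.08), and Txnip, an inhibitor of glucose uptake (2729 and 2756 against 2193, -0.32 ± 0.08), fell. The calls for Pdk4, Atp5o, Slc2a1 and Txnip were lost without the intensity trend (limma adjusted p between 0.0640 and 0.203) and with dim genes in the fit (between 0.120 and 0.199), where Chchd10 and Slc2a6 lost theirs too. Txnip also lost its call with quantile normalization (0.0761), with averaged probe sets (0.153) and with the limit set on the controls alone (0.0510).

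ATF4 drives genes of amino acid supply in the integrated stress response. Of 14 tested members of this list 7 fell and none rose, beside 3.51% of all genes tested that fell. The other 7 did not pass, and 3 of them were above the control mean. The median was -0.36. Phgdh, the entry enzyme of serine synthesis, had signals of 4574 and 3795 in the controls and 2727 with S2101 (-0.60 ± 0.11). Mthfd2 of mitochondrial folate metabolism read 1231 and 1186 against 798 (-0.57 ± 0.11). Pck2, the mitochondrial phosphoenolpyruvate carboxykinase, read 571 and 562 against 365 (-0.57 ± 0.14), and Asns, the asparagine synthetase, read 2292 and 2213 against 1564 (-0.51 ± 0.09). The other calls were Aldh18a1 of proline synthesis (-0.48 ± 0.09; another bright probe set gave 0.14), Atf4 itself (7906 and 7686 against 6195, -0.33 ± 0.07) and the serine synthesis enzyme Psat1 (-0.29 ± 0.08). None of the 7 calls was kept without the intensity trend or with dim genes in the fit.

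All 7 of these genes had a promoter entry, and 2 held the amino acid response letters TGATGNAA, which were in 2.29% of tested genes. The match in each is shown in capitals, 5′ to 3′ on the gene's strand, which is minus for Asns and plus for Pck2.
Asns, chr6:7693210-7693262: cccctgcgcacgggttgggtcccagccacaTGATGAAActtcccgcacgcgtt
Pck2, chr14:55540133-55540200: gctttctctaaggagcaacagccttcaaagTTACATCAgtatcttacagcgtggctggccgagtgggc
The match began 23 bases before the gene start in Asns and 103 in Pck2, where it stands in reverse complement.

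Other stress programmes showed fewer changes, to be read beside 3.26% of all genes tested that rose and 3.51% that fell. Of 16 tested unfolded protein response genes, 1 fell: Manf (7709.6 and 7900.5 against 6337, -0.30 ± 0.07), and the median was -0.10. The call was lost without the intensity trend (limma adjusted p = 0.223) and with dim genes in the fit (0.216), while 5 fell with probe sets averaged. None of 11 heat shock genes passed the limma test, although 3 had an unadjusted p under 0.05. The largest difference was that of Hspa1a (353 and 353 against 513, 0.48 ± 0.15), which did pass with probe sets averaged. Of 15 oxidative stress genes 3 rose and none fell, namely Aldh3a1, Xdh and Gsta4, and the median was 0.17. Xdh reached the test only through its S2101 value. None of 8 tested interferon-stimulated genes passed the limma test (1 with an unadjusted p under 0.05), and 10 more were too dim to test.

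Glucocorticoid-responsive and atrophy genes gave 5 higher and 1 lower of 19, beside 3.26% and 3.51% of all genes tested. Their median was 0.22. Ptgds led them. The metallothioneins Mt1 (10294 and 9877 against 16328, 0.69 ± 0.07) and Mt2 (6816 and 7782 against 11906, 0.71 ± 0.09), which bind zinc and copper, rose to a like extent. The other rises were the PI3-kinase subunit Pik3r1 (0.55 ± 0.10) and the transcription factor Cebpb (0.37 ± 0.08). Sgk1, a kinase induced by glucocorticoids, fell from 2724 and 2634 to 1967 (-0.44 ± 0.08). Fkbp5, on the same list, read 856 and 995 against 643 (-0.49 ± 0.13) and lay below both controls. It did not pass here but fell with the arrays centred on the median. Ptgds alone kept its call without the intensity trend or with dim genes in the fit. Lysosome and V-ATPase genes gave 5 higher and none lower of 20, beside 3.26% and 3.51% of all genes tested. Their median was 0.20. After Atp6v0e2 these were the proteases Ctsb (8963 and 8785 against 12267, 0.46 ± 0.07) and Ctsd (6187 and 6163 against 8261, 0.42 ± 0.07), the hexosaminidase subunit Hexa (0.40 ± 0.07) and the V-ATPase catalytic subunit Atp6v1a (0.35 ± 0.09). Atp6v0e2 alone kept its call without the trend or with dim genes in the fit, but it reached the main test only through its S2101 value. With the signal limit set on the controls alone it was left out, and 4 of 19 members rose.

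Signalling molecules moved in both directions, to be read beside 3.26% of all genes tested that rose and 3.51% that fell. Of 12 tested cytokine and prostaglandin genes 3 rose and 2 fell. In the prostaglandin pathway, the inducible cyclooxygenase Ptgs2 fell from 901 and 951 to 408 (-1.09 ± 0.12, limma adjusted p = 0.00111), while the terminal synthases Ptgds and Ptgis (3303 and 3783 against 5556, 0.64 ± 0.09) rose. The chemokine Cxcl12 rose from 3447 and 3752 to 4779 (0.41 ± 0.08), and Ptn fell. Cxcl12 and Ptgis lost their call without the intensity trend, and Ptgs2 too with dim genes in the fit. Of 16 tested immediate early genes 3 rose and 2 fell, with a median of 0.00. Myc fell from 653 and 630.0 to 397 (-0.63 ± 0.13) and Egr2 from 960.3 and 949 to 620.0 (-0.58 ± 0.11). Ier3 (1464 and 1536 against 2335, 0.62 ± 0.09), Jund (0.37 ± 0.08) and Klf4 (0.36 ± 0.07) rose. None of the immediate early calls was kept without the intensity trend or with dim genes in the fit.

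The named target of S2101 and its partners did not pass the test. Kdm1a had signals of 5537 and 5202 in the controls and 4862 with S2101, a difference of -0.14 ± 0.08 with a 95% interval of -0.31 to 0.03 (limma adjusted p = 0.336), and its other bright probe set gave 0.01. These values describe the transcript and not the activity of the enzyme. None of the 13 tested genes of LSD1 and CoREST complexes passed in limma, beside 6.77% of all genes tested. At that share so short a list would hold few calls, so their absence is no result about these genes. The median was -0.04, and 1 gene had an unadjusted limma p under 0.05. The largest difference was that of Zmym3, at 430.0 and 264 against 214 (-0.55 ± 0.24), where the controls lay far apart. The second flavin-dependent histone demethylase gene, Kdm1b, read 653 and 765 against 815 (0.19 ± 0.13). Among other amine oxidases, a list shorter still, none of 5 tested passed in this limma fit (3 at an unadjusted p under 0.05). Loxl3 passed with the arrays centred on the median (0.0453), with the stricter signal limit (0.0472) and with probe sets averaged (0.00790), and Lox with probe sets averaged (0.0207). The collagen cross-linking oxidases Loxl3 (-0.34 ± 0.09), Lox (-0.22 ± 0.07) and Loxl1 (-0.18 ± 0.07) lay below both controls, and the monoamine oxidase gene Maoa read 2019.6 and 1991 against 2135 (0.09 ± 0.09).

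Markers of adipocytes, endothelium, leukocytes, bone and cartilage were dim. All 8 adipocyte markers with a probe set were under the signal limit for testing, with summed signals of 362 and 395 in the controls and 411 with S2101. The 7 endothelial markers summed to 167 and 137 against 199, and the 8 leukocyte markers to 725 and 729 against 775, with Cd14 as the only tested one (0.21 ± 0.17). Of the 8 osteoblast and cartilage markers, summing to 1239.6 and 1148 against 1139.7, Dmp1 fell (212 and 228 against 105, -0.80 ± 0.20) and Sox9 did not pass. Dmp1 lost its call with quantile normalization and with the larger offset, 50% of the trimmed mean (limma adjusted p = 0.0660 and 0.0571), and with dim genes in the fit (0.310). The 8 neuron markers summed to 6294 and 6180.4 against 5995, and of the 4 tested Map2 rose (2084 and 2116 against 2709.6, 0.36 ± 0.08) and Nefl fell (691 and 573 against 375, -0.68 ± 0.15). Both lost their call with quantile normalization (limma adjusted p = 0.0571 and 0.0600), without the intensity trend and with dim genes in the fit (0.169 and 0.231).

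Among the 9097 genes too dim for the test, 19 lay at least 2-fold above both controls with S2101 and 18 at least 2-fold below, next to the 0.198% and 0.253% of tested genes. The S2101 signal of Csf2rb, the shared receptor chain for interleukin 3, interleukin 5 and GM-CSF, was 407 against 49.5 and 34.1 in the controls. Kng1, kininogen, read 57.6 and 14.4 against 321, and the organic anion transporter Slco4a1 read 61.7 and 55.1 against 265. On the low side Fmod, the proteoglycan fibromodulin, read 205 and 214 against 19.0, and Col8a2, a type VIII collagen chain, read 164 and 137 against 16.3. The spindle gene Ska3 read 176 and 152 against 10.3, and Cdc6, which loads the replicative helicase, read 278 and 194 against 61.5. These genes were chosen after their values were seen. With the signal limit set on the controls alone, Fmod (-1.91 ± 0.21) and Cdc6 (-1.34 ± 0.23) were tested and fell (limma adjusted p = 0.00131 and 0.0104). The other 5 were under that limit too. The low-side genes named are of matrix or cell division, but that side also held Kcnk13 (105 and 118 against 13.4) and Nat8 (159 and 131 against 21.5). Among the other dim members of the cell cycle and replication lists, Mcm10 read 147 and 182 against 63.9. Foxm1 read 84.9 and 121 against 145, Cdc25c 110 and 141 against 133, and Tyms 52.3 and 52.3 against 52.2.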

How the data were processed

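Gene expression was measured on Affymetrix arrays, 1 array per sample, with biotinylated cRNA from 250 ng of total RNA per the labels' protocols. The deposited values are signal intensity per probe set on a linear scale. MAS5 and Affymetrix Expression Console are named, without versions, in the submitters' processing notes. The deposited signals had, on every array, a 2% trimmed mean of 500.003. The medians were 75.1 and 66.6 for the controls and 72.2 for S2101. The control arrays shared 1 identical value and were counted as separate samples. The number of arrays limits the precision.

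The arrays hold 45101 probe sets. The platform annotation gave 1 gene symbol to 34958, several to 932 and none to 9147, and 64 were control probe sets. Gene identifiers of 34754 matched the mouse gene table (GRCm38.p6), and 0 symbols were updated. List members without a probe set of a single symbol are not reported here. Each gene was read from its brightest probe set over the 3 arrays, and the brighter 50% of genes were tested.

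Log2(signal + 50), where 50 is 10% of the trimmed mean, was tested in R 4.3.3 with limma 3.58.1, using lmFit and eBayes with the variance following intensity, and Benjamini-Hochberg adjustment over 9097 genes. The controls supply the only residual degree of freedom (1), to which eBayes added a prior of 8.59. The lone S2101 array is assumed to vary like them. The scripts were tested on simulated data, where the share of false calls was above the nominal one.

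Named genes were the 15 largest differences each way past the test and at least 0.5 beyond both controls, up to 5 members of each list with the largest difference, members of the LSD1 list and genes whose promoter holds a motif shown. Further called members of a list were named after their values were seen. The gene lists, motifs and the comparison were chosen with earlier results of these data known. Promoter sequences are RefSeq's (GRCm38.p6). Alternatives changed the offset, the filter, the variance trend, the choice of probe set, the scaling and the controls used. A filter on the controls alone was added after the data were seen.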

Additional observations from a re-analysis of the deposited data

Results flagged for a closer look

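Outside the genes compared above, 1369 probe sets with a mean signal at or above the limit for testing carried several gene symbols or none. A probe set shared by the alpha-globin genes Hba-a1 and Hba-a2 had signals of 137 and 161 in the controls and 386 with S2101, a difference of 1.13 on the scale log2(signal + 50). It stood out because it lay at least 2-fold above both controls in probe sets that the comparison did not use. On the low side 1 probe set met the same limit; it is not reported here. Neither was tested.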

How the results depend on the processing

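The number of genes past the test went from 616 (297 higher, 319 lower) to 21 (9 and 12) with no filter on dim genes and 110 (47 and 63) with no intensity trend, where the prior degrees of freedom were 3.86 and 3.98 in place of 8.59. It went to 1054 (515 and 539) with the probe sets of a gene averaged, where the prior was 18.4. All 21 and all 110 were among the 616, and 566 of the 1054 were. Quantile normalization, centring on the median, the stricter filter and both offsets gave between 440 and 693. Genes at least 2-fold beyond both controls numbered 18 higher and 23 lower, and 35 lower when the offset was 2% of the trimmed mean. They were 10 and 7 with an offset of 50%, 37 and 41 with no filter, which doubles the genes, and 6 and 9 with the filter at the 75th percentile, which removes genes. Leaving out 1 control leaves no residual degrees of freedom and so no test; the counts then lay between 22 and 25 higher and between 33 and 36 lower, 36 being without control 1. Apart from the changes by construction, the cause was not tested. The 30 leading genes kept their direction in every setting that held them. With an offset of 50%, 10 of them moved by over 1.5 times, to between 0.74 and 1.01 for those that rose and between -0.57 and -1.17 for those that fell. Averaged probe sets did so for Rad51ap1 (-0.90) and Syngr1 (0.90). Set on the 2 controls alone, an alternative added after the data were seen, the filter gave 597 genes past the test (277 higher, 320 lower, 586 of them shared), left out Atp6v0e2, Xdh, Syngr1 and Fam107a, and gave 13 and 28 genes 2-fold beyond both controls. Among named genes that did not pass, Phf21a gave 0.10 with probe sets averaged (-0.06 otherwise), and Rcor2 gave -0.0021 with quantile normalization. Without control 1, Ckm (-0.00043) and Rcor3 (0.08) changed sign, and without control 2, Gse1 (-0.02), Hdac1 (0.07), Irf1 (-0.05) and Rcor2 (-0.23) did. No paired analysis was possible because the S2101 group has a single array and its label carries no replicate number. The error rate of the calls rests on a prior estimated from 1 pair of controls and was above the nominal one on simulated data.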

Other observations

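A probe set shared by several genes of the histone H2A cluster, and so outside the comparison, had signals of 5403 and 5124 in the controls and 2589 with S2101, a difference of -1.01 on the scale log2(signal + 50). Histone genes of this kind are transcribed in S phase. No test was made of it.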
